A study of Mus musculus with 15 samples.

Results

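Occupancy of the transcription factor YY1 was compared with occupancy of the cohesin subunit SMC3 in control HPC-7 cells, using 6 of the 15 libraries of the series: the 3 libraries labelled YY1 and the 3 labelled SMC3, chosen by label. HPC-7 is a mouse line of early blood progenitors made from embryonic stem cells. All 6 libraries came from cells with the genotype label WT whose descriptions carry shLUC, the usual name of a luciferase shRNA control, so the cells may not be free of an shRNA vector. About 150000 cells went into each CUT&Tag reaction, in which an antibody brings a transposase to its target and the DNA cut nearby is sequenced. The YY1 antibody was from Active Motif and the SMC3 antibody from Abcam, per the labels' protocols. The descriptions name Abcam for SMC3 replicate 1 only. The protocol calls the 3 libraries of each target biological replicates, all of 1 cell line, so the p-values below measure the spread between cultures of that line. The 3 control libraries of H3K4me3, the histone mark of active promoters, served as a reference. The 3 IgG libraries were not analysed here, so the share of YY1 and SMC3 peaks that a reaction without a specific antibody would give was not measured.

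YY1 is a zinc finger protein that binds a short DNA motif, often close to the start of housekeeping genes, and can bring promoters and enhancers together by binding to itself. Cohesin is a ring of SMC1, SMC3, RAD21 and a STAG subunit that holds sister chromatids together and extrudes chromatin loops. It has no DNA motif of its own. It is loaded on chromatin by NIPBL and MAU2, released by WAPL, and halted at CTCF sites.

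The sequences below are shown because the results return to them. They are the parts of RefSeq promoter windows (GRCm38.p6, the assembly of mm10, written 5′ to 3′ on the gene's strand) that hold the YY1 motif AAGATGGCG or its short core ATGGCG, both searched on both strands and with the core inside the longer motif. Capitals mark the matches. Positions count from 0 at the gene start, and a negative position is upstream. Among 21263 promoter windows of 300 bases, 1.83% held the longer motif and 10.9% the core. Fiz1 (a zinc finger gene, bases -200 to -1, chr7:5014729-5014928, minus strand) and Cacybp (a ubiquitin ligase adaptor, bases -250 to -1, chr1:160212893-160213142, minus strand) are genes at which the YY1 and SMC3 summits lay apart. Hcfc1 (the transcription coregulator HCF-1, minus strand of chromosome X) and Pcif1 (an mRNA cap methyltransferase, plus strand of chromosome 2) had long YY1 peaks and no SMC3 peak. Each holds the longer motif at 2 positions, so 30 bases around each are shown (chrX:73966506-73966535, chrX:73966314-73966343, chr2:164879300-164879329 and chr2:164879380-164879409). At Smc3 (plus strand, chr19:53600383-53600412), the core lies across the start on the other strand, while both targets peaked well upstream of it.
Fiz1 promoter: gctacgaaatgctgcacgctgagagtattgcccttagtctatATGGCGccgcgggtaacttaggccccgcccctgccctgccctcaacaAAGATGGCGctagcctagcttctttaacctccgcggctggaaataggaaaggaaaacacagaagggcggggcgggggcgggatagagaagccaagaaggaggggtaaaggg
Cacybp promoter: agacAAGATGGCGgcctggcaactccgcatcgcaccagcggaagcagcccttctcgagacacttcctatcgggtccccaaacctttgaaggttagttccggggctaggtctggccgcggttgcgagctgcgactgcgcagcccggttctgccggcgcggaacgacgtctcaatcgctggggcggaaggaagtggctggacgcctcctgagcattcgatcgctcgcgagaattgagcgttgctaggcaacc
Hcfc1 upstream site: ggacggtttcAAGATGGCGgcttccacaat
Hcfc1 downstream site: gaggcggctcAAGATGGCGgctcccagagc
Pcif1 upstream site: tgccacactcAAGATGGCGgcgcggccgtg
Pcif1 downstream site: cccgggacacAAGATGGCGgcagcggcgct
Smc3 start site: ctccgcggccgcCGCCATtttgtttggcca

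The lists held 8469, 10699 and 3750 YY1 peaks and 4511, 4595 and 2061 SMC3 peaks in replicates 1, 2 and 3. The third library was the shortest list of each target, and the groups overlapped. The lists carry positions only, with no score or read count, so depth is unknown, and a target with fewer peaks cannot be told apart from one sequenced less deeply. At their gene starts, 13 of 14 progenitor markers carried H3K4me3 in at least 2 of 3 libraries, as did 0 of 4 lymphoid and 0 of 4 embryonic stem cell markers. The mark was also at 2 of 5 erythroid markers, at 1 of 5 myeloid markers, Mpo, and at all 3 megakaryocyte markers. Of the 12 olfactory and vomeronasal receptor genes listed as a control, 0 carried H3K4me3, YY1 or SMC3.

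YY1 peaks were longer than SMC3 peaks. The median YY1 peak was 314 bp in replicate 1, 365 bp in replicate 2 and 321 bp in replicate 3 (333 ± 27.6 bp, SD, n = 3). The median SMC3 peak was 245, 246 and 250 bp in the same order (247 ± 2.65 bp, SD, n = 3). Every YY1 library lay above every SMC3 library, and the difference of 86.3 bp gave p = 0.1 in an exact two-sided permutation test, the smallest p that 3 against 3 libraries allow. Over the 7 library measures compared, the adjusted p was 0.7. Peaks over 500 bp made up 21.5 ± 5.28% of YY1 and 6.32 ± 0.489% of SMC3 lists (SD, n = 3 each). With the 2061 longest peaks of each library, so that all lists had the same length, the difference was 247 bp. At gene starts the YY1 medians were 345, 417.5 and 333 bp and the SMC3 medians 259, 259 and 252 bp. Inside genes they were 243, 279.5 and 296 bp for YY1 and 212, 211 and 233.5 bp for SMC3, and between genes 250, 289 and 282 bp and 221.5, 218 and 253 bp. The median was highest at gene starts in all 3 YY1 libraries and in SMC3 replicates 1 and 2, but not in SMC3 replicate 3.

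**Figure D1:**
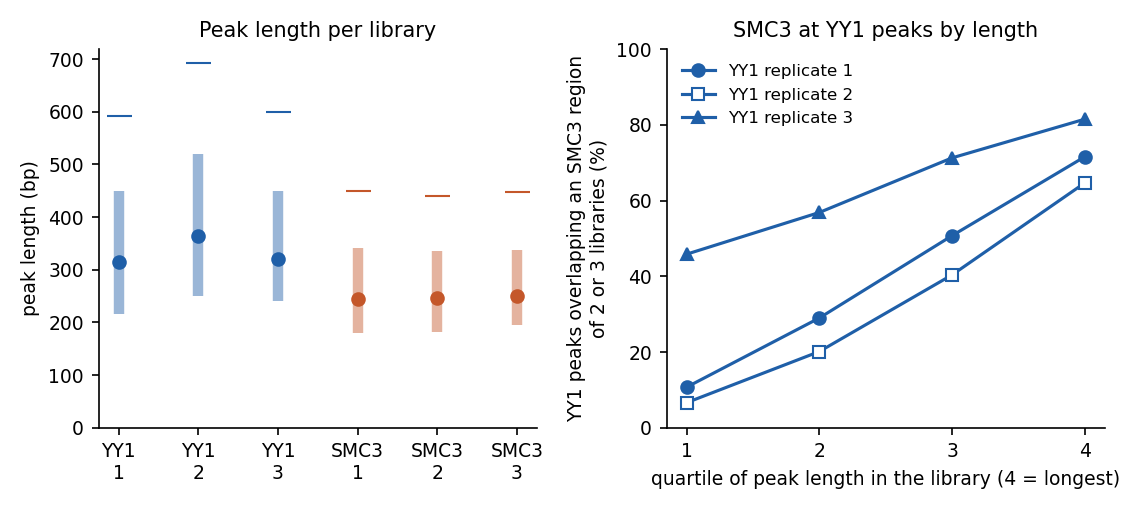
Left, peak length in bp for each library: the point is the median, the bar the interquartile range and the dash the 90th percentile; the 3 YY1 medians (314 to 365 bp) lie above the 3 SMC3 medians (245 to 250 bp). Right, the percentage of YY1 peaks that overlapped an SMC3 region of 2 or 3 libraries, by quartile of peak length within each YY1 library; it rose from the shortest to the longest quartile in all 3 libraries.

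Over whole lists, both targets had similar shares of their peaks at gene starts, inside genes and between genes. A summit, the position of the highest signal in a peak, counted as at a gene start within 1000 bp of one. This held for 71.0, 64.3 and 75.5% of YY1 peaks and 70.7, 71.8 and 72.4% of SMC3 peaks. The means of 70.3 ± 5.66% and 71.6 ± 0.870% (SD, n = 3 each) differed by less than the spread of the YY1 libraries (exact permutation p = 0.8). Summits elsewhere inside a gene made up 14.4 ± 3.64% of YY1 and 12.8 ± 1.23% of SMC3 peaks (SD, n = 3 each, exact permutation p = 0.6), and those between genes 15.3 ± 2.15% and 15.5 ± 0.425% (exact permutation p = 1). The median summit lay 105 ± 16.5 bp from the nearest start for YY1 and 109 ± 12.2 bp for SMC3 (SD, n = 3 each, exact permutation p = 0.6). Peaks overlapping an H3K4me3 region made up 93.1 ± 3.89% of YY1 and 93.1 ± 1.53% of SMC3 peaks (SD, n = 3 each). By chromosome, SMC3 had a larger share of its peaks on chromosome 1 (8.78 ± 0.982% against 6.85 ± 0.592% of YY1 peaks) and a smaller one on chromosome 11 (6.84 ± 0.762% against 8.80 ± 0.256%; SD, n = 3 each). The groups did not overlap on either chromosome, and both gave an exact permutation p of 0.1, adjusted to 0.191 over the 21 chromosomes. The same held, with smaller differences, on chromosomes 3, 7, 8, 9, 10, 12, 15, 18 and 19, so a lack of overlap was not particular to chromosomes 1 and 11.

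Nearly all genes with SMC3 at the start were also genes of YY1 replicates 1 and 2, the longer YY1 lists. YY1 was at the start of 6586, 7382 and 3309 coding genes in replicates 1 to 3, and SMC3 at 3609, 3732 and 1716. Of the SMC3 genes of each library, 96.5 to 99.2% were YY1 genes in YY1 replicate 1 and 98.3 to 99.5% in YY1 replicate 2. Against the short list of YY1 replicate 3 the share was 65.2 to 83.4%. In the other direction, 23.1 to 73.5% of the YY1 genes of a library were SMC3 genes, depending on the pair of libraries. These shares move with list length: 71.7 and 73.5% of the genes of YY1 replicate 3 were genes of SMC3 replicates 1 and 2, against 65.8 and 65.2% of theirs. With the 2061 longest peaks of each library, the mean difference in genes at the start was 215 in place of 2740 (exact permutation p = 0.1 and 0.3). Then 56.2 to 62.0% of SMC3 genes were YY1 genes and 46.4 to 59.5% of YY1 genes were SMC3 genes. SMC3 was called in 2 or 3 libraries at 0.0635% of 14168 genes with no YY1 peak, 3.52% of 1394 genes with YY1 in 1 library, 26.5% of 3092 genes with YY1 in 2, and 67.7% of 3233 genes with YY1 in 3. Only 1 gene without YY1 in any library had SMC3 in all 3, Dtx4, a ubiquitin ligase gene whose strand the promoter table does not give, and 571 genes with YY1 in all 3 had no SMC3 peak. Of 10248 genes with H3K4me3 at the start in at least 2 libraries, 61.4% had YY1, 29.7% had SMC3 and 13.2% had both targets in all 6 libraries. Of the 6296 of these genes with YY1, 47.5% had SMC3.

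The gene lists were read against these shares. They were chosen with earlier results known and are described by counts. Of 14 cohesin and regulator genes with H3K4me3, 12 had YY1 and 5 had SMC3 in at least 2 libraries: Smc3, Stag1 (a ring subunit) and Sgo1 (the protector of centromeric cohesion) in all 6 libraries, and Smc1a and Pds5b (a regulator of release and acetylation) in 2 of 3 of each target. Mau2, of the loader, had YY1 in 3 libraries and SMC3 in 0, Wapl had YY1 in 3 and SMC3 in 1, and Ctcf had YY1 in 2 and SMC3 in 0. Of 12 condensin and SMC5/6 genes with H3K4me3, 9 had YY1 and 3 had SMC3, namely Smc6, Ncapg2 and Ncapg. The condensin ATPase genes Smc2 and Smc4 had YY1 in 3 libraries and SMC3 in 0. Of 18 genes for YY1 and its INO80 and Polycomb partners, 13 had YY1 and 7 had SMC3, and Yy1, Ino80 (the remodelling ATPase) and Mbtd1 had both in all 6 libraries.

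Of 21 blood transcription factor genes with H3K4me3, 9 had YY1 and 6 had SMC3, and all 6 were among the 9. Over all genes with the mark, 61.4% had YY1, 29.7% had SMC3, and 47.5% of those with YY1 had SMC3. The same shares stand beside each list in this paragraph. Tal1, Lyl1, Hhex, Zfpm1 and Nfe2 had both targets in all 6 libraries. Runx1, Fli1, Erg, Spi1, Gfi1, Gfi1b and Ikzf1 had H3K4me3 in all 3 libraries and 0 peaks of either target at the start. Of 20 cytokine receptor and signalling genes, 8 had YY1 and 5 had SMC3. Kit, the stem cell factor receptor, and Il3ra, an interleukin-3 receptor chain, each had SMC3 in 3 libraries and YY1 in 2, and Stat3 had both in 3. Among 17 immediate early genes, which respond quickly to signals, 13 had YY1 and 6 had SMC3. Jun, Myc, Dusp1 and Klf6 had both in all 6 libraries, Fos had YY1 in 3 and SMC3 in 0, and Nfkbia had SMC3 in 3 and YY1 in 1.

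Among lists of housekeeping genes, 10 of the 13 mitochondrial import and chaperone genes with YY1 had SMC3 (76.9%), 7 of them in all 6 libraries, including the chaperone pair Hspd1 and Hspe1, the pore gene Tomm40 and the protease gene Lonp1. The share was 9 of 24 for small-subunit ribosomal protein genes (37.5%), where Rps13, Rps21, Rps23 and Rps29 had both in all 6 libraries. It was 9 of 20 for nuclear pore genes (45%, with Nup98 and Tpr in all 6) and 6 of 18 for DNA repair genes (33.3%). It was 4 of 11 for spindle and checkpoint genes (36.4%, with Mad2l1 and Ndc80 in all 6) and 7 of 13 for autophagy and lysosome genes (53.8%, with the kinase gene Ulk1 in all 6). For enhancer and loop factors it was 5 of 14 (35.7%), with Med14, Smarca4, Zfp143 and Maz in all 6. These shares were not tested against the 47.5% over all YY1 genes.

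SMC3 summits lay close to YY1 summits. From each SMC3 summit, the median distance to the nearest summit of YY1 replicate 1 was 41, 39 and 38 bp for SMC3 replicates 1 to 3. To YY1 replicate 2 it was 41, 43 and 40 bp, and to YY1 replicate 3, the shortest YY1 list, 175, 169 and 77 bp. For replicates 1 and 2 of YY1, 73.7 to 75.6% of SMC3 summits had a YY1 summit within 100 bp. The same distance to the nearest summit of another SMC3 library was 52 bp from replicate 1 to 2, 54 bp from 2 to 1, and 42 and 43 bp from replicate 3 to 1 and 2. It was 27388 and 29200 bp from replicates 1 and 2 to the shorter list of replicate 3. SMC3 summits were 77 to 93 bp from the nearest H3K4me3 summit at the median. A nearest distance falls as the other list grows. With the 2061 longest peaks of each library, SMC3 summits were 64 to 89 bp from another SMC3 library at the median and 163 bp to 10243 bp from a YY1 library.

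The share of SMC3 summits with YY1 close by was lower away from gene starts in all 9 pairs of libraries, which is given without a test. Within 250 bp of a summit of YY1 replicates 1 and 2 lay 93.1 to 96.1% of SMC3 summits at gene starts, 75.6 to 89.5% of those inside genes and 71.7 to 89.4% of those between genes. For the short list of YY1 replicate 3 these shares were 59.3 to 79.5% at gene starts, 38.5 to 65.5% inside genes and 43.9 to 66.4% between genes. Of 1817 SMC3 regions called in 3 of 3 libraries, only 8 had no YY1 summit of any library within 1000 bp. The longest was at chr5:75660283-75660681, with SMC3 peaks of 396, 355 and 187 bp, 85292 bp from the start of Kit, the nearest coding gene by its start. The others were nearest to Ctif, 4930558K02Rik, Mmp2, Mbp, Vmn1r238, Fignl1 and Dtx4. Of the 8 regions, 2 overlapped H3K4me3, and their median of mean lengths was 206 bp.

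In 1518 regions that held a peak in all 6 libraries, summits of the 2 targets were about as far apart as summits of 1 target. Of these regions, 96.7% overlapped H3K4me3. The median distance between summits was 36.7 bp over the 9 YY1 to SMC3 pairs of libraries (27 to 50.5 bp), 32.7 bp over the 3 YY1 pairs (23 to 41 bp) and 32.5 bp over the 3 SMC3 pairs (27.5 to 37 bp). The mean of the pairs between targets exceeded that within targets by 4.14 bp (exact permutation p = 0.1, the smallest possible). Without YY1 replicate 3, whose pairs were the widest among the YY1 pairs and among the pairs between targets, the excess was 0.83 bp (exact permutation p = 0.9). With the midpoint of each peak in place of its summit it was 11 bp (exact permutation p = 0.1). All 6 summits fell within 10 bp in 137 regions and within 50 bp in 306 (20.2%), and they spread over more than 500 bp in 39.

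**Figure D2:**
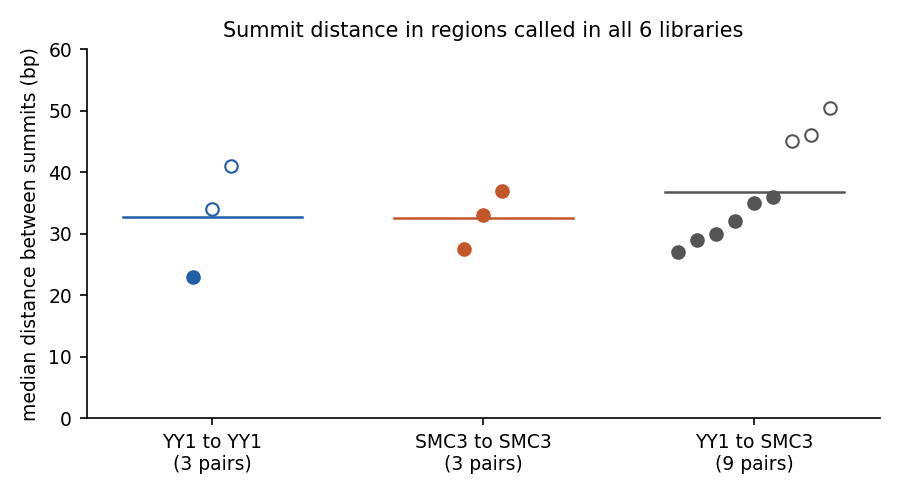
Median distance in bp between the summits of 2 libraries over the 1518 regions called in all 6 libraries; each point is 1 of the 15 pairs of libraries, open points include YY1 replicate 3, and the line is the mean of the kind. The 9 pairs between targets reach from 27 to 50.5 bp, and the 3 highest of them all include YY1 replicate 3.

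At 8 regions the 6 summits were the same base. The longest of these were at Ints7 (a subunit of the Integrator complex, 107 bp downstream of the start, chr1:191575122-191576160), Pdcd10 (position -219), Clcn6 (-127), Prpf4 (a splicing factor, -94) and Mbd4 (a DNA glycosylase, -240). The start of a second gene also lies within 1000 bp of each of these 5 regions. At Smc3 itself, the YY1 summits were at -248, -248 and -251 and the SMC3 summits at -252, -247 and -250 in replicates 1, 2 and 3, so the 6 lay within a few bases, upstream of the core printed above. At Yy1 the YY1 summits were at -316, -359 and -359 and all 3 SMC3 summits at -359. At Sgo1 the YY1 summits were at -178, -117 and -240 and the SMC3 summits at -120, -117 and -117. At Stag1 they were at -95, -58 and -64 for YY1 and at 17, -62 and 17 for SMC3, and the targets overlapped.

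Few of the shared regions were called for a displaced summit. These regions are merged from overlapping peaks of all 6 libraries, so places with the targets in separate regions were not tested. A low count therefore does not show that displacement is rare. The position of the summit differed between the targets in 13 of the 1518 regions (0.856%) in limma's moderated test with Benjamini-Hochberg adjustment over all regions, and 102 regions had an unadjusted p under 0.05. In each of the 13, the 3 SMC3 summits lay on one side of the 3 YY1 summits, as they did in 160 of the 1518 regions (10.5%). The 13 were called on these same positions, so their separation is not a further result. Leaving out any 1 library from the test kept the direction in all 13 and the call in 6, at Sp4, Akt1s1, Cnnm2, Atp5g2, Cacybp and Sp1. The 1518 regions were not merged anew for this, so the library left out still shaped them. With the replicate number added to the limma model, 0 regions were called, and whether those numbers pair the libraries is not settled. Among the others, Fiz1 was called in 2 of the 6 settings, Cep63, Txndc11 and the region nearest to Adam6b in 1 each, and Cox20 and the region nearest to Crlf2 in 0. Of the 10 regions that lay within 1000 bp of a start of known strand, SMC3 was upstream of YY1 in 6 and downstream in 4. The region counts here, not the summit, and at Akt1s1 all 6 summits were further than 1000 bp from the start. That region is among those with SMC3 upstream only by the strand of Akt1s1.

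Sp4 and Sp1 encode related zinc finger factors of GC boxes, and their SMC3 summits were displaced in opposite directions. At Sp4 (chr12:118301022-118302389) the YY1 summits were at 84, 270 and 166 bp downstream of the start, and the SMC3 summits at -724, -727 and -724. The SMC3 summits were shifted by -898 ± 49.0 bp (SE, limma adjusted p = 0.00491). The YY1 peaks compared there were 397, 1360 and 299 bp long and the SMC3 peaks 343, 305 and 302 bp. Of these, only the peak of YY1 replicate 2 was long enough to reach both places. In YY1 replicates 1 and 3 the shift thus compares separate peaks within a merged region, not summits of a shared peak. At Sp1 (chr15:102405270-102406512) the YY1 summits were at -663, -707 and -706 and the SMC3 summits at -413, -436 and -410, which is 272 ± 16.4 bp closer to the start (SE, limma adjusted p = 0.00511). At Cacybp the YY1 summits at -225, -265 and -228 flanked the longer motif, whose bases run from -246 to -238 in the sequence above. The SMC3 summits at 18, -18 and 16 lay at the start, 245 ± 17.0 bp downstream of YY1 (SE, limma adjusted p = 0.00845). At Fiz1 all 3 YY1 summits were at -125, just upstream of the longer motif at -111 to -103. The SMC3 summits at -979, -750 and -830 were far upstream (a shift of -728 ± 60.9 bp, SE, limma adjusted p = 0.0175), and the start of Zfp524 also lies within 1000 bp of this region.

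Smaller steps were seen at genes with narrow spread. At Atp5g2, for a subunit of the mitochondrial ATP synthase, the YY1 summit was at 36 in all 3 libraries and the SMC3 summits at -113, -97 and -113 (a shift of -144 ± 8.22 bp, SE, limma adjusted p = 0.00491). At Cnnm2, for a magnesium transport protein, the YY1 summits were at -36, -35 and -30 and the SMC3 summits at -183, -183 and -178 (a shift of -148 ± 7.03 bp, SE, limma adjusted p = 0.00403). The region named by Akt1s1, for an mTORC1 inhibitor, reaches that start, but 0 libraries of YY1, SMC3 or H3K4me3 had a peak counted there. Its YY1 summits at -1156, -1150 and -1155 and SMC3 summits at -1348, -1343 and -1346 were counted from the Akt1s1 start. The shift was -192 ± 6.99 bp (SE, limma adjusted p = 0.00218), and the start of Tbc1d17 also lies within 1000 bp of the region. In these 3 regions the gap between the targets was many times the spread among the libraries of either target. The call selects regions for such a gap, so this is not a further result.

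**Figure D3:**
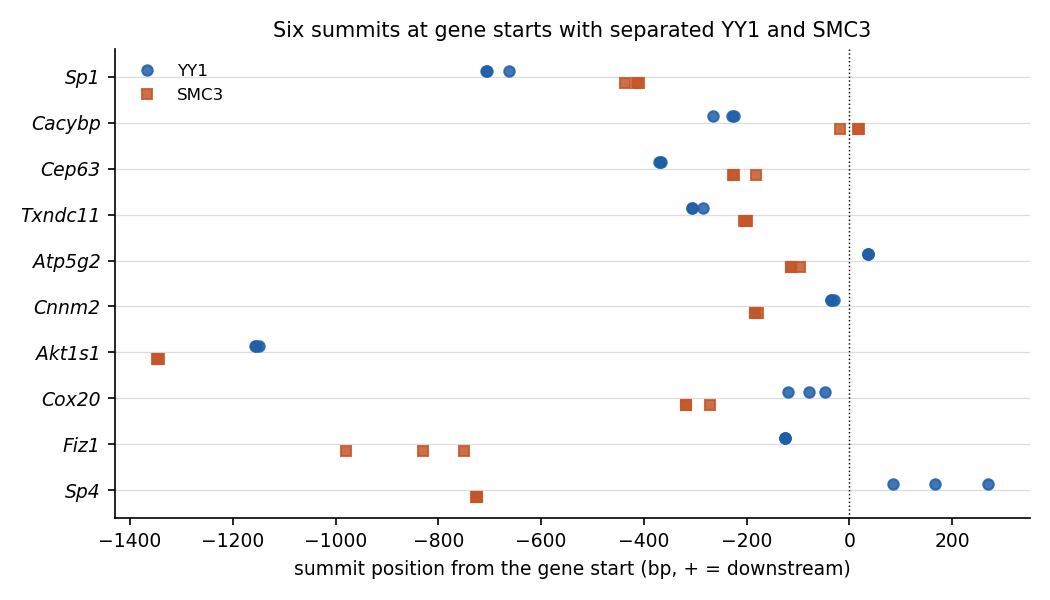
Summit positions in bp from the gene start (dotted line, positive downstream) of the 3 YY1 libraries (circles) and the 3 SMC3 libraries (squares) in the 10 regions with displaced summits that lie within 1000 bp of a start of known strand. The regions were called on these positions, and the groups do not overlap at any of them. SMC3 is upstream of YY1 in the lower 6 and downstream in the upper 4.

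Peak length, scaled to the median of each library over the 1518 regions, differed in 57 regions (limma, Benjamini-Hochberg adjusted p under 0.05), and 375 had an unadjusted p under 0.05. With the percentile of length within the library in place of the scaled log2 length, 2 regions were called, both with SMC3 shorter. On the log2 scale SMC3 was relatively shorter in 42 (2.77%) and relatively longer in 15 (0.988%). When any 1 library was left out of the test on the same 1518 regions, the direction held in all 57 and the call in 11. With the replicate number added to the limma model, 23 of the 1518 regions were called, 21 of them with SMC3 shorter. At Hsp90ab1, a cytosolic chaperone gene, the YY1 peaks were 1146, 1565 and 1360 bp long and the SMC3 peaks 259, 238 and 160 bp. The scaled log2 length of SMC3 was lower by -2.03 ± 0.20 (SE, limma adjusted p = 0.000964). At Fiz1 the YY1 peaks were 1488, 1494 and 1450 bp and the SMC3 peaks 242, 260 and 240 bp (-1.96 ± 0.20, SE, limma adjusted p = 0.000964). Pafah1b1 (LIS1, a dynein regulator), Fem1a, Matr3 and Mynn were also called without each library in turn, with YY1 peaks of 730 to 1311 bp and SMC3 peaks of 153 to 277 bp. Tal1, noted after its values were seen, belonged to this set with YY1 peaks of 997, 1170 and 674 bp and SMC3 peaks of 253, 194 and 212 bp (-1.46 ± 0.19, SE, limma adjusted p = 0.00445).

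The region with the largest relative excess of SMC3 length was at Tbl1xr1, a corepressor subunit gene, where SMC3 peaks of 557, 576 and 420 bp faced YY1 peaks of 238, 503 and 177 bp (1.51 ± 0.24 on the scaled log2 scale, SE, limma adjusted p = 0.0122). This call was lost without YY1 replicate 1 and without YY1 replicate 3, and held in the other 4 settings that left out a library. The next 7 regions, with scaled log2 differences of 0.90 to 1.12, were less stable. Those at Bbs10, Pts and an end of Ccdc88c were called in 0 of the 6 settings. The other 4 lay further than 1000 bp from a start and are named by the nearest gene, Cp and Rab37 (called in 1 setting each) and Cibar2 and Smo (2 each). In the region nearest to Smo, 12265 bp from its start, the 6 summits lay within 28 bp, and SMC3 peaks of 1169, 1012 and 850 bp were longer than YY1 peaks of 787, 907 and 749 bp. In 681 of the 1518 regions every YY1 peak was longer than every SMC3 peak, and in 1 region the reverse held.

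YY1 peaks with SMC3 were longer at the median than those without. Neither group was limited to YY1 regions called in several libraries. A longer peak can also meet the 1 bp overlap more easily, and the size of that effect was not tested. YY1 peaks that overlapped an SMC3 region of 2 or 3 libraries had medians of 424, 514 and 363.5 bp in replicates 1 to 3, and the other YY1 peaks 252, 303 and 268 bp. The difference of 159.5 ± 58.8 bp (SD, n = 3) was positive in 3 of 3 libraries (exact sign-flip permutation p = 0.25, the smallest possible with 3 libraries). From the shortest to the longest quartile of YY1 peaks, the share with SMC3 was 10.7% and 71.6% in replicate 1, 6.64% and 64.7% in replicate 2, and 45.9% and 81.5% in replicate 3. SMC3 peaks with YY1 were longer than those without by 71.5 ± 24 bp (SD, n = 3; 3 of 3 libraries, exact sign-flip permutation p = 0.25). Peak length follows read depth and signal as well as the width of the bound stretch, and these cannot be told apart in lists without scores.

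Summits at gene starts were further upstream for SMC3 than for YY1, counted over whole lists. Relative to the nearest start of known strand, the median YY1 summit was at -37, -20 and -39 and the median SMC3 summit at -64, -64 and -84 bp. The groups did not overlap, with means of -32.0 ± 10.4 and -70.7 ± 11.5 bp (SD, n = 3 each, exact permutation p = 0.1, the smallest possible). H3K4me3 summits lay on the other side of the start, at 52, 38 and 29.5 bp. SMC3 summits over 100 bp upstream made up 40.7 ± 4.48% against 31.9 ± 3.79% of YY1 summits (SD, n = 3 each). The difference was not seen in regions shared by both targets. These regions are merged from overlapping peaks of all 6 libraries, which by itself holds the summits close together. Starts with the targets in separate regions are left out. In the 1005 regions with a peak in all 6 libraries and a start of known strand within 1000 bp, the median YY1 summit was at -99, -91 and -97 and the median SMC3 summit at -100, -94 and -106 bp. There the difference was 4.33 bp (exact permutation p = 0.4), and SMC3 was the more upstream target in 52.5% of these regions.

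YY1 summits themselves differed with the presence of SMC3. At starts where the YY1 peak overlapped an SMC3 region of 2 or 3 libraries, the median YY1 summit was at -67, -61.5 and -66 bp in replicates 1, 2 and 3 (n = 2175, 2200 and 1562 peaks). Where the YY1 peak overlapped no SMC3 peak, it was at -14, 4 and 10 bp (n = 1963, 2594 and 477 peaks). The median with SMC3 was further upstream in 3 of 3 libraries, by -64.8 ± 11.5 bp (SD, n = 3, exact sign-flip permutation p = 0.25, the smallest possible). The difference was -55.2 to -76.3 bp within the 4 quartiles of YY1 peak length. It was -72.7 bp at starts without a start on the other strand within 1000 bp, and -62.2 bp at starts whose promoter window lacks the core ATGGCG. A start on the other strand lay within 1000 bp of 14.2, 14 and 15.6% of the starts with SMC3 and 11.2, 10.6 and 16.6% of those without. This comparison and that of signed positions over whole lists were made after the data had been seen.

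**Figure D4:**
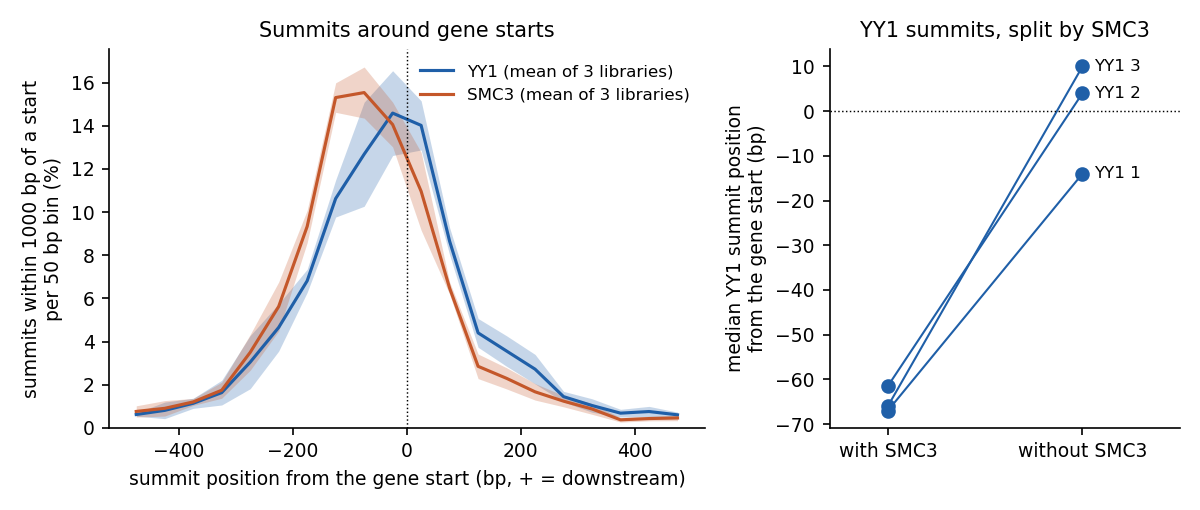
Left, the percentage of summits within 1000 bp of a gene start that fall in each 50 bp bin around it, as the mean of 3 libraries with 1 SD shaded; the SMC3 curve is shifted upstream of the YY1 curve. Right, the median YY1 summit position in bp of each YY1 library at starts with SMC3 and without SMC3, joined by library; it moves from between -67 and -61.5 bp to between -14 and 10 bp.

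Some of the YY1 regions called in all 3 libraries had no SMC3 peak. Of 3562 YY1 regions called in 3 of 3 libraries, 651 (18.3%) overlapped no SMC3 peak, and 96.9% of these overlapped H3K4me3. Hcfc1 had the longest peaks by rank, of 1680, 1742 and 1526 bp, with summits at -876, -872 and -872, upstream of both motif sites printed above. Hnrnpa1, an RNA-binding protein gene whose region also lies at the start of Cbx5, followed with 1451, 1609 and 1181 bp. Pcif1 had peaks of 1343, 1457 and 734 bp. The others of the 8 highest ranks were nearest to Spen, a corepressor gene, or at Fbxl19, Crat, Ywhae and Pnisr. These 8 were picked by length rank, so their length is not a result. Over all 651 regions the median of mean lengths was 370 bp, and the median length percentile within the library was 53.3. The 651 were counted by overlap of peaks, and the SMC3 regions without YY1 above by summits within 1000 bp, so the counts are not counterparts. SMC3 lists were also shorter (a mean of 3722 against 7639 peaks), and a missing SMC3 peak cannot be told apart from lower depth.

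The YY1 motif was more frequent in promoters with YY1 and no SMC3. AAGATGGCG was in 7.13% of 2075 promoter windows with YY1 in 2 or 3 libraries and SMC3 in 0, and in 3.87% of 2921 windows with both targets. It was in 1.73% of 3763 windows with H3K4me3 alone and 0.213% of 11271 windows with none of the 3. The core ATGGCG followed the same order, at 26.8, 18.4, 12.1 and 4.81%. The 1182 windows with YY1 and with SMC3 in 1 library did not lie between the first 2 classes, with the longer motif in 3.38% and the core in 18%, just below the class with both targets. The CTCF core AGNGGGCGC was in 4.14% of windows with YY1 alone, 6.03% of those with both, and 6.67% of those with H3K4me3 alone. The box CCAAT was in 39.4, 45.3 and 31.1% of the same 3 classes, and the ETS motif CCGGAAGT in 12.5, 8.56 and 9.09%. These are shares of windows of the same length, described without a test, and windows of neighbouring starts overlap.

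At 56 promoter windows with 1 copy of AAGATGGCG and peaks in all 6 libraries, YY1 summits were nearer to the motif than SMC3 summits. The median distance was 96.5, 118 and 85 bp for YY1 and 177.5, 162.5 and 149.5 bp for SMC3 in replicates 1 to 3, and the groups did not overlap. YY1 summits within 50 bp of the motif made up 33.9, 25 and 23.2%, and SMC3 summits 16.1, 17.9 and 10.7%. At the 230 windows with 1 core ATGGCG the gap was smaller, at 117.5, 129.5 and 131.5 bp for YY1 and 147, 134.5 and 143 bp for SMC3, with 20.4 to 22.6% of YY1 and 16.5 to 19.6% of SMC3 summits within 50 bp. At the 99 windows with 1 ETS motif the distances overlapped, at 119, 130 and 123 bp for YY1 and 122, 114 and 116 bp for SMC3. At the 65 windows with 1 CTCF core the distances were 116, 118 and 120 bp for YY1 and 115, 117 and 105 bp for SMC3, and also overlapped. Summits within 50 bp of the CTCF core made up 15.4, 16.9 and 16.9% for YY1 and 21.5, 24.6 and 24.6% for SMC3, and these groups did not overlap.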

How the data were processed

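The deposited files are peak lists, 1 per library, with chromosome, start, end, name and the offset of the summit from the start in bp. The authors' other units are absent: the deposited lists hold positions only, with no score, height or count. MACS2 2.2.9.1, Bowtie2 2.5.1, cutadapt 4.5, Picard 3.1.1 and the build mm10 are named in the submitters' processing notes. No label or header gives their settings or the use of IgG in calling peaks. Starts were read as 0-based and are printed 1-based. Depth is unknown, so no counting interval is given.

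Peaks of a target were merged where they shared at least 1 bp, and a region was reproducible in at least 2 of 3 libraries. Where a region held several peaks of 1 library, the longest was used. The gene table was RefSeq's for GRCm38.p6, with 21887 coding genes. Stranded starts were taken from the RefSeq promoter table for the 17492 of them listed there. For the rest either end of the span counted as a start, and signed positions leave them out. This replaced the planned use of 1 rule for all genes, and the planned motif search was limited to that table.

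Library values were compared by exact two-sided permutation over 20 assignments, with Benjamini-Hochberg adjustment over the 7 measures. Summit position and log2 length relative to the library median were tested with limma 3.58.1 in R 4.3.3 over the 1518 regions with a peak in all 6 libraries, at an adjusted p under 0.05. The routines were tested on simulated data. The members, lists and tests were chosen with earlier results of these data known. Named genes were Yy1 and the cohesin list, the 8 most displaced and the 8 most different in length in each direction, the 8 longest regions of 1 target without the other, the 5 regions with the closest summits and up to 4 members of each list. The last limit was exceeded where more members are named, and those were chosen after their values were seen. The alternatives left out each library, blocked on the replicate number, and changed the peak set, the gene window, the overlap, the summit and the limma settings. Some items are not reported here.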

Additional observations from a re-analysis of the deposited data

How the results depend on the processing

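Of 166 recomputed values of 15 results, 140 kept their direction and side of the threshold, or for counts stayed within 1.5 times. The settings that changed a value follow, and the cause was not tested unless named. The count of displaced summits was 0 with the replicate block (limma, 105 regions at an unadjusted p under 0.05) and 50 with midpoints. Without 1 library, and with the regions merged anew, it was 8 to 23. The count of regions with different length was 23 with the replicate block and 2 with percentiles of length. It was 33 with the longer 50% of each list and 21 with equal numbers of longest peaks (fewer regions were tested in both). Without 1 library, again merged anew, it was 13 to 60. Whether the replicate numbers pair the libraries is not settled. Same-numbered YY1 and SMC3 libraries correlated at only 0.053, 0.049 and 0.16 over 1518 regions. YY1 replicate 1 correlated best with SMC3 replicate 2 (0.0995), but YY1 replicates 2 and 3 with the SMC3 library of the same number. For library values the block left each difference the same, for example 86.3 bp in median length (exact sign-flip permutation p = 0.25). The mean of the 9 median distances from SMC3 to YY1 summits, 73.7 bp, was 1335 bp with equal numbers of longest peaks, and 40.3 bp without YY1 replicate 3 to 90.8 bp without YY1 replicate 1.

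Differences between the targets that were small over whole lists changed sign. For the distance to the nearest start (YY1 minus SMC3) the value was 2.5 bp with either end of every gene as a start, 2.00 bp with equal numbers of longest peaks, and -13.5 to 2.67 bp without 1 library. For the share at gene starts it was 2.56 percentage points with the longer 50%, 5.73 with equal numbers, and -4.02 to 1.61 without 1 library. For the share inside genes it was -2.01 with equal numbers and -0.162 to 3.47 without 1 library, and for the share between genes 0.0611 with either gene end and -1.45 to 0.544 without 1 library. The difference in median length was 70.5 to 96.0 bp without 1 library. The upstream position of SMC3 was 32.0 to 42.2 bp without 1 library. It fell to 4.33 bp in the shared regions, which are merged from overlapping peaks of both targets. With groups of 3 no library value could pass 0.05, so a kept side of that threshold says nothing of stability.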
